A study of Mus musculus with 6 samples.

Results

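The genes that copy DNA in S phase, and E2f1, which switches many of them on at the G1/S boundary, were followed as a set in mouse embryonic stem cells with lowered Pcl2. The set was a list of 48 genes of DNA replication and G1/S. A gene was measured where the platform annotation gave it a probe set naming no other gene, and its brightest probe set over the 6 arrays stood for it. By this rule 47 of the 48 were measured and tested among 13095 genes; Chaf1a was not analysed here. The cells were R1, an established mouse embryonic stem cell line kept undifferentiated with leukaemia inhibitory factor (LIF). They stably expressed either an shRNA (short hairpin RNA) directed at Pcl2 (gene symbol Mtf2), a Polycomb-like partner of Polycomb repressive complex 2, or a mismatch control sequence, with 3 arrays in each group. The labels call the 3 arrays of a group biological replicates, state that the shRNA RNA came from 1 clone and speak of mismatch controls in the plural, so shRNA and clone cannot be told apart, and p-values reflect only how much these cultures vary. Values are MAS5 signals, a brightness per probe set on a linear scale, given as mean ± SD over n = 3 arrays. Changes are differences of mean log2(signal + 7), shRNA minus control, called log2 fold changes, with a standard error (SE) and limma's adjusted p; a gene is called where adjusted p is below 0.05.

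Replication begins in G1, when the origin recognition complex (ORC), Cdc6 and Cdt1 load the MCM helicase onto DNA, a step called licensing that geminin (Gmnn) restrains. In S phase Cdc45 and the GINS complex turn MCM into a moving helicase. The polymerase alpha-primase complex lays primers, and polymerases delta and epsilon extend them with the sliding clamp PCNA. Transcription of many of these genes is driven by E2F factors once the retinoblastoma pocket proteins release them, and mouse embryonic stem cells are known for a short G1 and a large share of cells in S phase.

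Most of the set lay a little above the control level in the Pcl2 shRNA cells, and few members were called. The log2 fold change was above 0 for 44 of 47 members (45 with quantile normalization and 43 with median centring), with a median of 0.40, which is 1.32-fold, while 52.4% of all genes tested were above 0, with a median of 0.02. The change reached 1.5-fold for 9 members and stayed below it for 38. limma called 8 members higher, Pola1, Mcm10, Gins1, Pole2, Mcm3, Rpa1, Ung and Mcm5, which is 17% of the set, against 4.46% of all genes tested called higher. It called 0 members lower, against 8.16% of all genes. At an unadjusted p below 0.05, 23 members were higher, where 11.3% of all genes were, and 1, Mcm2, was lower. Every shRNA array lay above every control array for 21 members, and below for Mcm2, while the groups overlapped for 25; over all genes tested the shares were 14.5% separated upwards and 16.7% downwards. With the replicate number as a block, 21 members were called higher and 0 lower, against 9.97% and 13.8% of all genes.

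**Figure D1:**
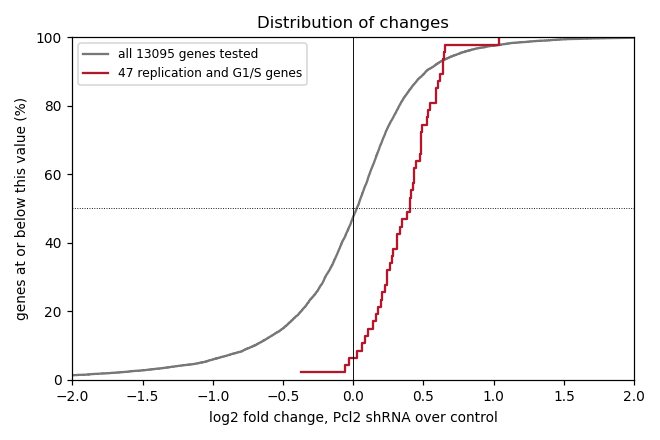
Cumulative share of genes (vertical axis, in percent) at or below each log2 fold change of Pcl2 shRNA over control (horizontal axis), for all 13095 genes tested (grey) and the 47 replication and G1/S genes (red). The red curve crosses 50% at 0.40 and the grey at 0.02, and the red curve runs over a narrower range, from -0.37 to 1.04; the axis is cut at -2 and 2.

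The called members were close to the threshold, apart from Pola1. Leaving out 1 array at a time gave 1 call, Pola1 alone, without control replicate 1 or 3 or shRNA replicate 2 or 3; 3 calls without shRNA replicate 1; and 14 without control replicate 2. A single call is 2.13% of the set, and in those 4 fits 3.2%, 3.8%, 1.99% and 3.09% of all genes were called higher, so the set was then called less often than all genes or about as often. The 3 calls are 6.38% of the set, against 2.94% of all genes, and the 14 calls are 29.8%, against 4.41%. Pola1 was also the only call with median centring of the arrays and, separately, in the fit without the eBayes intensity trend, where 3.26% and 3.8% of all genes were called higher. The median of the set stayed between 0.32 and 0.47 in the 6 fits that left out an array.

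Control replicate 2 was the control array nearest to the shRNA group for these genes. It was the highest control for 34 of 47 members, while over all genes tested it was the highest for 28.9%. Relative to the control mean, the median member stood at -0.06, 0.18 and -0.11 (log2) on control arrays 1, 2 and 3 and at 0.31, 0.39 and 0.39 on shRNA arrays 1, 2 and 3, so all 3 shRNA arrays stood above all 3 controls. The median over all genes stayed between -0.04 and 0.05 on the 6 arrays. Between arrays with the same replicate number, 43, 38 and 44 of the 47 members were higher in the shRNA cells for numbers 1, 2 and 3, and 34 were higher in all 3 pairs, which held for 27.3% of all genes.

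**Figure D2:**
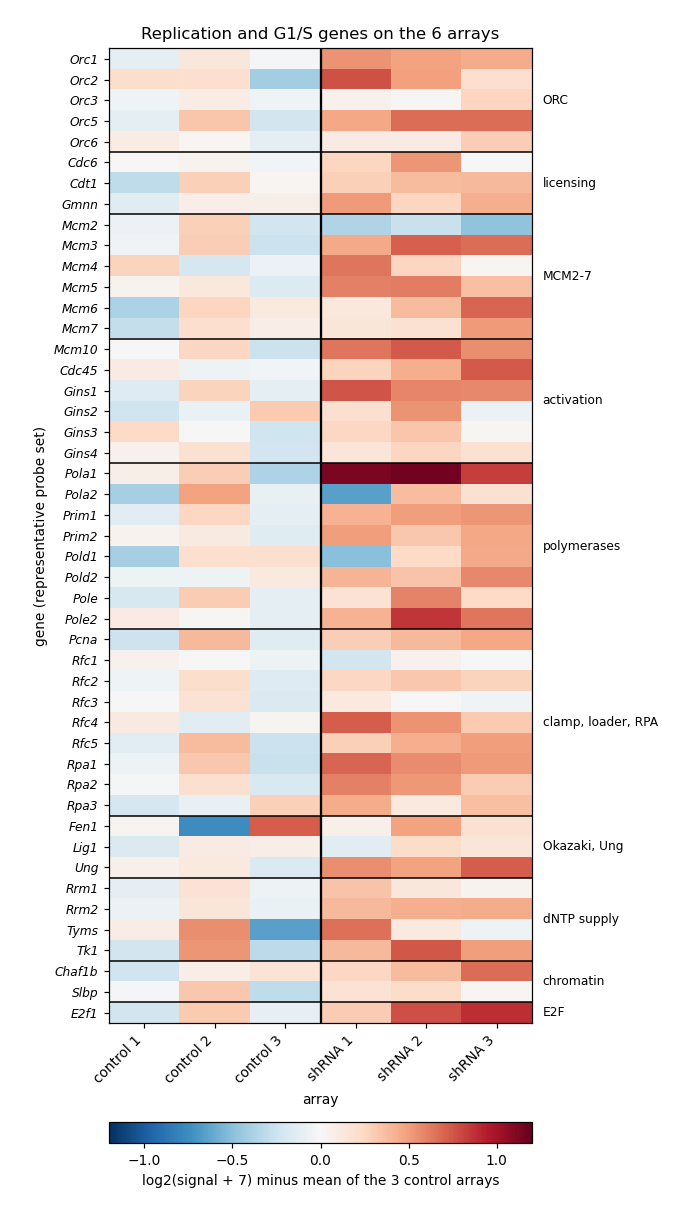
Each row is a measured member, grouped by role, and each column an array; colour gives log2(signal + 7) minus the mean of the 3 control arrays (red higher, blue lower). The shRNA columns are red in most rows, the Mcm2 row is blue on all 3, and control replicate 2 is the reddest control column, with a median of 0.18.

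The targeted gene and the cell type were checked first. Mtf2 gave 1951, 1513 and 1704 on control arrays 1 to 3 and 1048, 1167 and 869.6 on shRNA arrays 1 to 3 (log2 -0.74, SE 0.17, adjusted p = 0.0157; not called without control replicate 1 or shRNA replicate 3, where the highest adjusted p was 0.0574). The summed signal of 10 embryonic stem cell markers was 24860 to 32630 in the controls and 36990 to 47240 in the shRNA cells. Of these 10, 4 were called higher, against 4.46% of all genes tested. With the replicate block 5 were, against 9.97%, which adds Nanog at a block adjusted p of 0.0107. Lin28a lay below 0 with overlapping groups (2134 ± 410.8 and 1650 ± 205.1, log2 -0.36, adjusted p = 0.232), and Sall4 near 0 (log2 0.04). The summed signal of 9 trophectoderm markers was 5015 to 9515 in the controls and 1136 to 1547 in the shRNA cells. Of 7 tested, 4 were called lower, Krt8, Krt18, Krt7 and Cdx2, and none higher. For this list and those below, 8.16% of all genes were called lower, and 13.8% with the replicate block. Krt8 (4329, 2386 and 3935 on control arrays 1 to 3) and Krt18 (3842, 1800 and 4099) made up most of the control sum. On shRNA arrays 1 to 3 Krt8 gave 129, 165 and 147 and Krt18 131, 106 and 147.5. Gata3 was no brighter on any array than the background of 20.3 set by the bacterial control probe sets. Tfap2c of the same list lay the other way without overlap, at 566 ± 72.3 and 812.7 ± 169.5 (log2 0.51, adjusted p = 0.108), and was called higher with the block (adjusted p = 0.0285). The summed signal of 8 primitive endoderm markers, most of it from Sparc, was 2734 to 4200 against 1342 to 1680. Of 6 tested, 3 were called lower, Sparc, Col4a1 and Dab2. Gata4, Gata6 and Foxa2 of the same list lay near 0 (log2 0.00, 0.03 and -0.05), and Afp was no brighter than background. The 6 neural markers summed to 613 to 664 against 525 to 642. Of 5 tested, 1 was called lower, and 2 with the block, which adds Map2 at a block adjusted p of 0.042. Of 11 measured fibroblast markers, summing to 511 to 1148 and 397 to 730, none of 7 tested was called by limma (1 was lower at an unadjusted p below 0.05, and 2 with the replicate block), and Dcn, Fap and Lum were no brighter than background. The part of these marker differences in the changes of the replication genes was not tested. In bulk RNA, a larger share of cells in S phase and more transcript per cell cannot be told apart.

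Sequence before the transcription start was examined because E2F sites are a textbook feature of these genes. In the RefSeq promoter table (GRCm38.p6), 39 of the 47 members had an entry, some with more than 1 start. The motif searched was TTTNNCGC with C or G at each N, which gives 4 variants, on both strands (the reverse reads GCGNNAAA), in the 250 bases before each start. It was present in 9 of 45 member promoters (20%), in 3.14% of the 13525 promoters of genes tested and in 1.86% of all 32851 promoters. The 9 genes were Cdc6, Gins3, Mcm5, Mcm6, Mcm7, Orc1, Orc3, Pola1 and Rfc3. Of 7 called members with a promoter entry, 2 held the motif, Pola1 and Mcm5. CCAAT (or ATTGG), the NF-Y motif, was in 53.3% of member promoters and 33.8% of all promoters. Its share among promoters of genes tested was not counted.

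The 4 upstream stretches below belong to the members the results turn on: Pola1, with the largest rise, Mcm3 and Mcm5, the called MCM subunits, and Mcm2, the subunit with a value below 0. Each is given 5′ to 3′ on the gene's strand, with matches to TTTNNCGC in capitals. The Pola1 match starts 138 bases before the transcription start. Those of Mcm5 start 153 and 149 bases before it and overlap on opposite strands, so they print as 1 run. Mcm3 and Mcm2 had no match in this window.
Pola1 (chrX:93632156-93632405, minus strand): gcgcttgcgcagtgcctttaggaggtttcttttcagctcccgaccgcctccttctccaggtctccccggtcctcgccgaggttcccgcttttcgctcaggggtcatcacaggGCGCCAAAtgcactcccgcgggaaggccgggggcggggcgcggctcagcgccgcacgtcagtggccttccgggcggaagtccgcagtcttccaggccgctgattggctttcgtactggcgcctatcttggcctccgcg
Mcm5 (chr8:75109259-75109508, plus strand): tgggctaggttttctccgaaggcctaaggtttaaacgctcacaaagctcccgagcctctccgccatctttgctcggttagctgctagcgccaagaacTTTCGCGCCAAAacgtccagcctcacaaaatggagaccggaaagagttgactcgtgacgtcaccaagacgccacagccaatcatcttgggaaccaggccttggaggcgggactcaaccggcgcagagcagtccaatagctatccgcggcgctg
Mcm3 (chr1:20820313-20820562, minus strand): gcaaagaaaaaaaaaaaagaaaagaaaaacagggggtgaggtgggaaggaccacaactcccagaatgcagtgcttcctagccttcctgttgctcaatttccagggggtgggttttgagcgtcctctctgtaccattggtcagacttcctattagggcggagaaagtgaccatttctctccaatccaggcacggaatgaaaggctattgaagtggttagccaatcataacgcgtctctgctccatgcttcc
Mcm2 (chr6:88898781-88899030, minus strand): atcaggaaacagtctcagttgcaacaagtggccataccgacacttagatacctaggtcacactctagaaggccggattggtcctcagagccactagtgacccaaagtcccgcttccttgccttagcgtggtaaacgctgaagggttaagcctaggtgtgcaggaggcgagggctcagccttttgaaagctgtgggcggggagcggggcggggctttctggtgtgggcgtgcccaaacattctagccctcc

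The origin recognition complex marks the sites where replication can start. All 5 measured subunits had a log2 fold change above 0, from 0.11 for Orc3 to 0.60 for Orc5, and none was called by limma. At an unadjusted p below 0.05, 3 were higher, as were 11.3% of all genes. Orc5 came nearest, with 464, 637 and 433 in the controls and 699.6, 808 and 805 in the shRNA cells (SE 0.18, adjusted p = 0.0535), and all 3 shRNA arrays above all 3 controls. Orc1, an ATPase subunit of the complex, gave 387, 462 and 414 against 612, 588 and 574, again without overlap (log2 0.49, SE 0.15, adjusted p = 0.0601). Orc2 had a log2 change of 0.48 and overlapping groups (735, 729.7 and 469.8 against 1078, 890.5 and 725.8; adjusted p = 0.186). With the replicate block Orc5 (adjusted p = 0.0113), Orc1 (0.0196) and Orc2 (0.0195) were called. Orc6 (log2 0.16, adjusted p = 0.547) and Orc3 (adjusted p = 0.725) gave the smallest values; the groups of Orc6 did not overlap. Other tested probe sets of Orc3 gave -0.14 and -0.05, and its direction was negative with the mean of its probe sets. The remaining subunit, Orc4, was outside the set and gave 498 ± 100.3 and 475 ± 56.8 (log2 -0.05).

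The licensing factors were all above 0 without a call by limma, with or without the replicate block. Of these 1, Gmnn, was higher at an unadjusted p below 0.05, as were 11.3% of all genes. Gmnn, the inhibitor of Cdt1, gave 1163, 1355 and 1348 against 1832, 1539 and 1741, with no overlap (log2 0.40, SE 0.15, adjusted p = 0.107). Cdt1 itself gave 2297, 3473 and 2892 against 3464, 3697 and 3724, where control replicate 2 reached the shRNA range (log2 0.35, adjusted p = 0.228). Cdc6, the ATPase that works with ORC, had the smallest log2 fold change of the 3 (log2 0.26, adjusted p = 0.38).

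The MCM helicase subunits lay on both sides of 0. Mcm3 rose from 2460, 3113 and 2122 to 3484, 4173 and 4039 (log2 0.62, SE 0.17, adjusted p = 0.0413), and its other 4 probe sets gave 0.52 to 0.63, all with overlapping groups. Mcm5 rose from 3011, 3185 and 2600 to 4449, 4473 and 3752 (log2 0.53, SE 0.15, adjusted p = 0.0453), and its other 2 probe sets gave 0.47 and 0.38, both with overlapping groups. In the brightest probe set of each gene, which gave these values, every shRNA array exceeded every control; with the mean of its probe sets neither gene was called (adjusted p = 0.0589 for Mcm3 and 0.12 for Mcm5).

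Mcm2 lay on the other side. Its signals were 1851, 2380 and 1675 in the controls and 1517, 1617 and 1391 in the shRNA cells (log2 -0.37, SE 0.17, adjusted p = 0.191), and the second probe set gave 1457, 1731 and 1136 against 978, 1043 and 931 (log2 -0.53). In both probe sets every shRNA array lay below every control, and Mcm2 was below 0 in all 20 fits run, including quantile normalization and median centring, without a call in any of them (adjusted p = 0.0558 with the replicate block). It was the only member whose groups separated downwards.

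The other 3 subunits lay above 0 with overlapping groups in their brightest probe set and no call, with or without the replicate block: Mcm6 at log2 0.40 (adjusted p = 0.252), Mcm4 at 0.31 (0.362) and Mcm7 at 0.28 (0.364). Mcm6 gave 1580, 2456 and 2229 against 2245, 2675 and 3331, so that the lowest shRNA array, replicate 1, lay below control replicate 2. A further tested probe set of Mcm6 (1624 ± 180.4 and 2166 ± 78.3, log2 0.42) and 1 of 3 further probe sets of Mcm7 (1141 ± 68.7 and 1504 ± 97.3, log2 0.40) did separate the groups. Of the MCM family, 2 of 6 members were thus called higher and none lower, against 4.46% and 8.16% of all genes. At an unadjusted p below 0.05, Mcm3 and Mcm5 were higher, as were 11.3% of all genes, and only Mcm2 was lower.

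**Figure D3:**
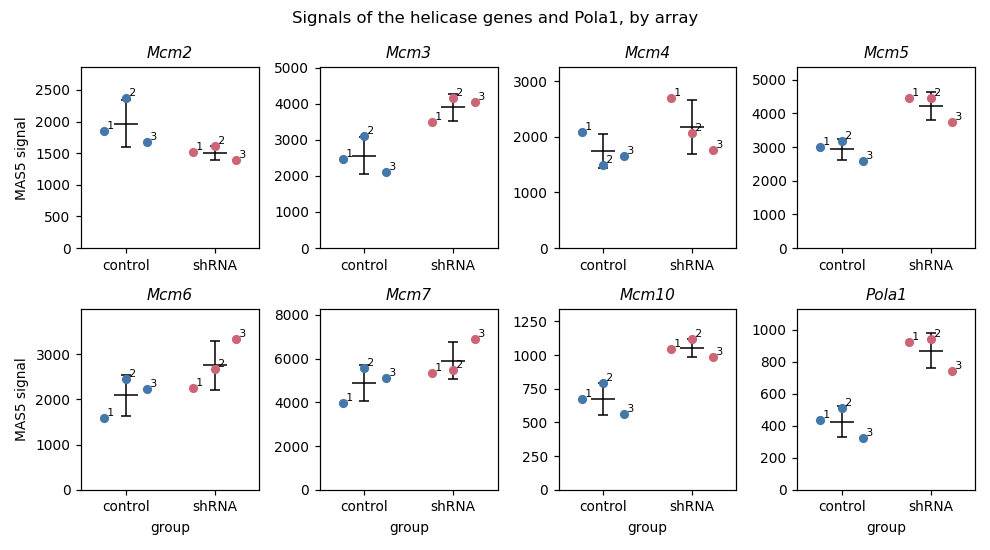
MAS5 signal (vertical axis, from 0, a scale of its own in each panel) in the control (blue) and Pcl2 shRNA (red) arrays for the 6 MCM subunits, Mcm10 and Pola1; points are arrays, numbered by replicate, and bars give the mean and SD (n = 3). The groups separate upwards for Mcm3, Mcm5, Mcm10 and Pola1 and downwards for Mcm2, and overlap for Mcm4, Mcm6 and Mcm7.

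Factors that activate the loaded helicase were all above 0, and 2 of 6 were called higher, against 4.46% of all genes. With the replicate block 3 were called higher, against 9.97%. Mcm10, which is needed to start unwinding, rose from 671, 796 and 559.8 to 1048, 1118 and 985 (log2 0.64, SE 0.17, adjusted p = 0.03), and it was not called with the mean of its probe sets (adjusted p = 0.12). Of its 2 dimmer probe sets, 1 separated the groups (59.1 ± 9.92 and 94.0 ± 7.14, log2 0.62) and the other overlapped (70.7 ± 31.9 and 81.5 ± 22.4, log2 0.24). Gins1, a GINS subunit, rose from 343, 462 and 351 to 649.5, 576.5 and 572 (log2 0.64, SE 0.17, adjusted p = 0.0337). Cdc45, the helicase cofactor, separated the groups too, at 272, 243 and 249 against 308, 347 and 429, but was called only with the block (log2 0.48, adjusted p = 0.103, block adjusted p = 0.041); its dim second probe set gave -0.25. The other GINS genes, Gins2, Gins3 and Gins4, overlapped between groups, at log2 0.22, 0.20 and 0.19. A GINS tetramer holds 1 copy of each subunit, and here 1 of its 4 genes was called.

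The largest change of the set was that of Pola1, the catalytic subunit of the primer-making polymerase alpha. Its signal was 438, 514 and 322 in the controls and 924, 942 and 746 in the shRNA cells, so the lowest shRNA array exceeded the highest control, and the fold change was 2.06 (log2 1.04, SE 0.20, adjusted p = 0.0068). Pola1 was called in every one of the 6 fits without 1 array (log2 0.86 to 1.19, highest adjusted p = 0.0381). A second Pola1 probe set near background gave 15.3 ± 5.13 and 20.97 ± 4.95, with overlapping groups. Pola2, the accessory subunit of the same enzyme, gave 225, 421 and 280.0 against 188, 388 and 339 (log2 -0.03, SE 0.29, adjusted p = 0.962), with both groups covering the same range; quantile normalization gave it a value above 0.

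Both primase genes separated the groups, with log2 fold changes near each other. Prim1, the catalytic subunit, gave 861, 1120.0 and 869 against 1265, 1342 and 1364 (log2 0.49, SE 0.16, adjusted p = 0.0693). Prim2 gave 703.5, 736 and 619.9 against 971, 860.3 and 949 (log2 0.43, SE 0.15, adjusted p = 0.0867). Both were called with the block (adjusted p = 0.0208 and 0.034). All their other probe sets gave values above 0 with separated groups, at 0.55 for Prim1 and 0.50 and 0.83 for Prim2.

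Among the elongating polymerases, Pole2, the second subunit of polymerase epsilon, rose from 485, 458 and 421 to 609.7, 827 and 710 (log2 0.64, SE 0.16, adjusted p = 0.0298). The catalytic subunit gene Pole had overlapping groups (log2 0.33, SE 0.19, adjusted p = 0.308). For polymerase delta, the small subunit gene Pold2 gave 714, 716 and 809.9 against 994, 947 and 1118, without overlap (log2 0.45, adjusted p = 0.077, block adjusted p = 0.0199). The catalytic Pold1 gave 512, 778 and 773 against 475, 797 and 929 (log2 0.06, adjusted p = 0.91). Differences between subunits of 1 enzyme were not tested.

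Of the clamp Pcna and the 5 genes of its loader, none was called by limma. At an unadjusted p below 0.05, 2, Rfc4 and Rfc5, were higher, as were 11.3% of all genes. Pcna gave 4236, 6577 and 4533 against 6139, 6576 and 6917, where control replicate 2 lay inside the shRNA range (log2 0.38, adjusted p = 0.217), and it was called without control replicate 2. Of the clamp loader genes, Rfc4 separated the groups at 744, 627 and 707 against 1150, 1009 and 862 (log2 0.53, SE 0.16, adjusted p = 0.0584, block adjusted p = 0.0151). Rfc5 (log2 0.41) and Rfc2 (0.28) followed without a call, and the groups of Rfc2 did not overlap. Rfc3 (0.02) and the large subunit gene Rfc1 (-0.06) lay near 0. Median centring turned Rfc3 negative, and 2 other probe sets of Rfc1 gave 0.21 and 0.34.

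The single-stranded DNA binding protein RPA was represented by all 3 subunits. Rpa1, the large subunit that holds most of the DNA contacts, rose from 2828, 3689 and 2454 to 4775, 4363 and 4210 (log2 0.59, SE 0.17, adjusted p = 0.0492), and its second probe set also separated the groups (log2 0.61); with the mean of the probe sets Rpa1 was not called (adjusted p = 0.0541). Rpa2 gave 635 ± 84.7 and 884 ± 91.4, without overlap, and was called with the block and with array weights but not otherwise (log2 0.48, adjusted p = 0.086, block adjusted p = 0.0191). Rpa3 overlapped (log2 0.31, adjusted p = 0.313).

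Neither lagging-strand enzyme was called by limma, and the uracil glycosylase Ung was. Ung, which removes uracil from new DNA, rose from 731, 762 and 623 to 1040.0, 984 and 1164 (log2 0.59, SE 0.15, adjusted p = 0.0307), with no overlap. Lig1, the ligase that seals Okazaki fragments, gave 1222 ± 124 and 1294 ± 159.7 (log2 0.08, adjusted p = 0.806). Fen1, the flap nuclease, had the widest control spread of the 3, at 936.5, 536.5 and 1510 against 950.4, 1275 and 1037 (log2 0.24, SE 0.31, adjusted p = 0.691).

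Genes of deoxynucleotide supply were all above 0 and none was called by limma. At an unadjusted p below 0.05, 2, Rrm2 and Tk1, were higher, as were 11.3% of all genes. Rrm2, the S-phase subunit of ribonucleotide reductase, gave 3133, 3629 and 3102 against 4304, 4437 and 4457 and had the smallest SE of the 4 (log2 0.42, SE 0.14, adjusted p = 0.0732, block adjusted p = 0.0361). Tk1, the salvage thymidine kinase, gave 303, 514 and 282 against 465, 596 and 504, so that control replicate 2 fell inside the shRNA range (log2 0.55, SE 0.23, adjusted p = 0.162, block adjusted p = 0.0228). Rrm1 overlapped (log2 0.17, adjusted p = 0.539). Tyms, thymidylate synthase, was the dimmest member, at 29.9 ± 14.5 and 35.1 ± 11.3, and its 3 other probe sets fell below the brightness needed for testing, so these arrays measured it poorly.

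In chromatin assembly, Chaf1b, a subunit of the factor that deposits histones behind the fork, gave 353 ± 50.8 and 480 ± 74.4 without overlap (log2 0.44, adjusted p = 0.156, block adjusted p = 0.0303). Slbp, which binds the stem-loop of histone mRNAs, gave 1625 ± 354 and 1764 ± 126 (log2 0.14, adjusted p = 0.687). E2f1, the transcription factor of the set, gave 213, 311 and 233 against 309, 430 and 465; its lowest shRNA array lay just under control replicate 2 (log2 0.65, SE 0.21, adjusted p = 0.0713, block adjusted p = 0.0101). E2f1 was also called without control replicate 2 and without shRNA replicate 1.

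**Figure D4:**
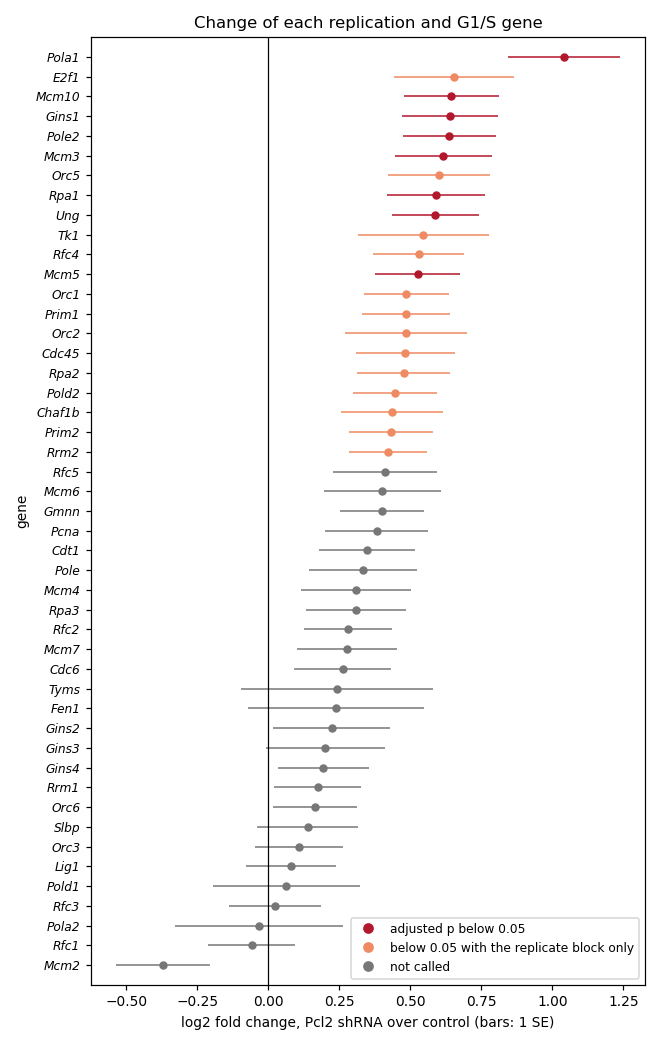
Log2 fold change of Pcl2 shRNA over control for the 47 measured members in order of size (points), with 1 SE (bars); red marks the 8 members with adjusted p below 0.05, orange the 13 called with the replicate block only, grey the rest. Pola1 stands at 1.04, Mcm2 at -0.37, and 44 of the 47 points lie above 0 (45 with quantile normalization, 43 with median centring).

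Other genes of replication and S phase, outside the set, were read as lists beside it. Of 33 other replication factors 3 were called higher and 0 lower by limma, 9.09% against the 4.46% of all genes, and the list median was 0.29. With the replicate block 8 were called higher and 1, Chtf8, lower, against 9.97% and 13.8% of all genes. Ticrr, which helps load Cdc45, rose from 207 ± 48.3 to 386 ± 54.6 (log2 0.89, SE 0.20, adjusted p = 0.0171). Tipin, of the fork protection complex, rose by log2 0.64 (SE 0.17, adjusted p = 0.0351) and the ribonuclease H2 subunit gene Rnaseh2b by 0.62 (SE 0.17, adjusted p = 0.0378). Ticrr lost its call without control replicate 1 or shRNA replicate 2, Tipin without any 1 array except control replicate 2, and Rnaseh2b without any 1 array except control replicate 2 or shRNA replicate 1. The Dbf4-dependent kinase that fires origins was not called in either subunit, with Cdc7 at 315 ± 58.1 and 311 ± 22.6 and Dbf4 at 1832 ± 274 and 2059 ± 186.

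Genes of the replication checkpoint and fork repair had the highest list median, 0.45, with 22 of 23 above 0. Of these 6 were called higher and 0 lower by limma, 26.1% against the 4.46% of all genes called higher. With the block 11 were called higher, where 9.97% of all genes were. Hus1, a subunit of the checkpoint clamp, rose from 292, 358.5 and 292 to 550.5, 634 and 525 (log2 0.85, SE 0.16, adjusted p = 0.0075). The mismatch repair gene Msh6 (log2 0.77, SE 0.16, adjusted p = 0.011), the checkpoint kinase genes Atr (0.72, SE 0.17, adjusted p = 0.0193) and Chek2 (0.68, SE 0.14, adjusted p = 0.0108) rose as well. Chek2 was called in all 6 fits without 1 array; Hus1 and Msh6 lost the call without shRNA replicate 2, and Atr without control replicate 1 or shRNA replicate 2 or 3.

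The regulators of G1/S were called about as often as all genes. Of 37 E2F, pocket protein, cyclin and inhibitor genes, 2 were called higher (5.41%, against 4.46% of all genes tested) and 3 lower (8.11%, against 8.16%), with a median of 0.12. With the block the counts were 7 and 7, where 9.97% and 13.8% of all genes were called higher and lower. Of the 3 that fell, 2 encode inhibitors of cyclin-dependent kinases, while the other inhibitor genes of the list lay on both sides of 0. Cdkn2b (p15) fell from 222, 77.9 and 171 to 48.8, 37.9 and 45.2 (log2 -1.58, SE 0.33, adjusted p = 0.0114), called in all 6 fits without 1 array, and Cdkn1c (p57) from 525, 602 and 407 to 273, 321 and 179.9 (log2 -0.99, SE 0.23, adjusted p = 0.0197). The repressor E2f6 was lower too (log2 -0.87, SE 0.20, adjusted p = 0.0181). None of the other inhibitor genes was called by limma. Cdkn1b lay above 0 (log2 0.46, adjusted p = 0.19, block adjusted p = 0.0253), as did Cdkn2c (0.13) and Cdkn2d (0.05). Cdkn1a (-0.65, block adjusted p = 0.0121) and Cdkn2a (-0.48) lay below 0. Mybl2, a cell-cycle transcription factor, rose by log2 0.69 (SE 0.17, adjusted p = 0.0245) and E2f2, an activator like E2f1, from 44.7 ± 7.15 to 79.8 ± 5.04 (log2 0.75, SE 0.21, adjusted p = 0.0407). Cdkn1c lost its call without control replicate 1 or 2 or shRNA replicate 3, E2f6 without control replicate 1 or shRNA replicate 3, Mybl2 without any 1 array except control replicate 2 or shRNA replicate 1, and E2f2 without any 1 array except control replicate 3.

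The remaining lists held no call by limma at adjusted p below 0.05. They were 16 measured genes of nucleotide synthesis (median 0.22), 11 of S-phase chromatin (0.29) and 19 of mitosis (0.11). At an unadjusted p below 0.05, 3, 2 and 4 of them were higher, where 11.3% of all genes were, and none lower. With the block 2, 3 and 4 were called higher and none lower, against 9.97% and 13.8% of all genes. The difference between the set and any of these lists was not tested.

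**Figure D5:**
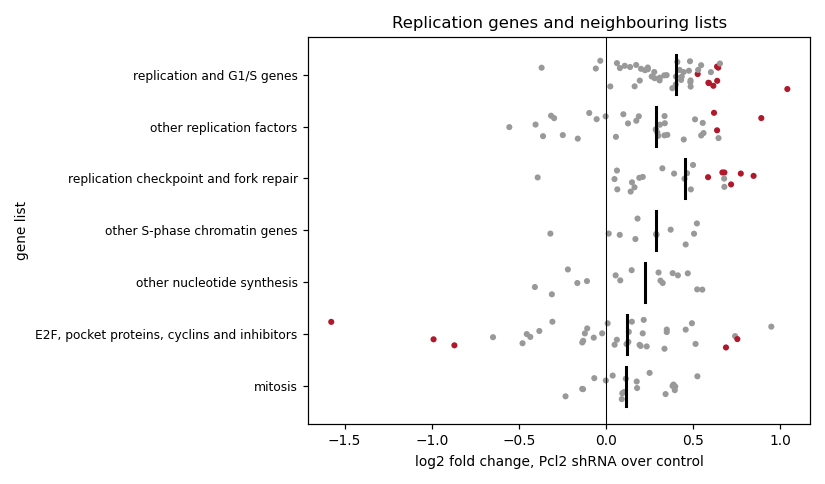
Log2 fold change of Pcl2 shRNA over control (horizontal axis) for the genes of each list (rows); each point is a gene, red where adjusted p is below 0.05, black lines are list medians, and vertical scatter within a row has no meaning. Medians run from 0.45 for checkpoint and fork repair and 0.40 for the set to 0.11 for mitosis.

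Other probe sets bright enough to test mostly lay on the same side of 0. The 47 members had 102 probe sets, of which 88 passed the brightness filter (a signal of about 20.2). Of 41 that did not represent their gene, 35 lay above 0. Among 28 members with more than 1 tested probe set, all pointed one way for 23, and the exceptions were Cdc45, Gins3, Orc3, Rfc1 and Rfc3. No member was at or below background throughout a group.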

How the data were processed

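RNA was measured on 6 Affymetrix Mouse Genome 430 2.0 arrays, 3 per group. The deposited values are intensities, linear MAS5 signals that the authors obtained with GCOS 1.4 (labels; submitters' processing notes). Trimming 2% from each end left a mean of 150.001 on every array, and that scaling was not altered; further settings and the genome build were not stated.

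Of 45101 probe sets, 34945 named 1 gene, and 34741 of these took their symbol from the GRCm38.p6 gene table. Signals were used as log2(signal + 7), 7 being the 20th percentile, which understates changes of dim genes. Probe sets from the 40th percentile of mean log2 value upwards were tested, the brightest per gene, for 13095 genes. limma 3.58.1 in R 4.3.3 (lmFit, eBayes with trend) tested shRNA minus control, two-sided, with Benjamini-Hochberg adjustment over all genes; the script was tested on simulated data. The number of arrays limits the precision.

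Labels number the samples 1 to 3 in each group. Deviations from group means correlated at 0.25 to 0.40 between same-numbered arrays and at -0.38 to -0.00 between others. The labels do not say what a number marks, so a pairing by number is inferred from these correlations and is not established. Block values are given where they change a call.

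The members and lists were chosen with earlier results of these data known. All members are named; from each other list up to 4 called genes per direction are, largest first, plus Mtf2. Orc4, Cdc7, Dbf4, Chtf8, the kinase inhibitor genes not called and the markers named were chosen after their values were seen. So was the background, the highest signal of 27 bacterial control probe sets. Alternatives changed 1 choice at a time.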

Additional observations from a re-analysis of the deposited data

How the results depend on the processing

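The median of the members (0.40) and their 0 calls lower held under every alternative run, the median ranging from 0.32 to 0.47 (0.32 with quantile normalization, 0.34 with median centring); the count of 8 called higher did not. It was 1 (Pola1) with median centring, where the median of all genes was -0.035, and 1 without the eBayes trend, 5 without a brightness filter, 16 with array weights and 21 with the replicate block; without 1 array it ranged from 1 to 14. The other settings (pseudocounts of 1 and 21, the 60th percentile filter, where 46 members were tested, the mean of probe sets, the brightest by linear mean, no _x_at or _s_at probe sets, quantile normalization and, chosen after seeing the data, signals floored at background) gave 6 to 9. Over all genes, 584 were higher and 1068 lower in the main analysis, 885 higher with array weights, and 1305 and 1808 with the replicate block, which pairs the arrays by number; without 1 array 261 to 577 were higher. The cause of these differences was not tested. The signs of members near 0 (Pola2, Rfc1, Rfc3, Orc3, Pold1, Lig1, Fen1, Slbp, Tyms) turned under some alternatives. Most members differed by less than 1.5-fold, with a median SE of 0.17.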

Other observations

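The highest signal among the 27 bacterial control probe sets separated the groups, at 11.2 to 12.1 on the control arrays and 18.05 to 20.3 on the shRNA arrays. All members but Tyms lay well above these levels. Ccne1, the cyclin that drives entry into S phase, is a gene whose spread lay in 1 array: 1040.0, 835 and 945 in the controls and 2896, 1133 and 1177 in the shRNA cells, without overlap (log2 0.74, SE 0.31, adjusted p = 0.162 by limma, block adjusted p = 0.0271). Rbl2, a pocket protein gene, gave 23.4, 18.6 and 36.8 against 54.3, 43.0 and 72.9 (log2 0.95, SE 0.28, adjusted p = 0.0536, block adjusted p = 0.0118). Cdkn1a (p21) gave 937, 402 and 993 against 473, 331 and 612 (log2 -0.65, adjusted p = 0.26, block adjusted p = 0.0121), with overlapping groups and control replicate 2 lowest among the controls. Ccne1, Rbl2 and Cdkn1a were chosen after their values were seen.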
